A study of Mus musculus with 8 samples.

Results

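Lactose, the main sugar of milk, is made in the Golgi of alveolar cells, the luminal cells that secrete milk. Glucose enters through transporters, hexokinases and phosphoglucomutases turn it into glucose phosphates, and UDP-glucose pyrophosphorylase opens the route to UDP-galactose, which a transporter carries into the Golgi. There the galactosyltransferase B4galt1, bound to alpha-lactalbumin (Lalba), joins galactose to glucose. Alpha-lactalbumin is made by the mammary epithelium and changes the sugar that the enzyme accepts, so that the pair is called lactose synthase. The lactose synthesis genes described here are 9 genes of the deposited table of 55933 genes, taken by their names as the proteins of these steps: Lalba, B4galt1, the glucose transporter Slc2a1, the hexokinases Hk1 and Hk2, the phosphoglucomutases Pgm1 and Pgm2, Ugp2 and the UDP-galactose transporter Slc35a2.

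The RNA came from mammary epithelial cells of female C57BL/6 mice on pregnancy day 14.5, with 4 control and 4 cKO mice and 1 library each. The cKO mice carry K14-rtTA, teto-Cre and Bmpr1a fl/fl, so that doxycycline in the drinking water lets a K14 promoter switch on Cre and delete the BMP receptor gene Bmpr1a in the myoepithelial (contractile) layer, whereas lactose is made by luminal cells. The controls were littermates that the labels call wild type; the sources used here do not give their transgenes. Glands were digested with collagenase and hyaluronidase and the cells were not sorted, so a library holds luminal, myoepithelial and remaining stromal and blood cells together. In such bulk samples, more cells of a type and more RNA per cell cannot be told apart.

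Values are FPKM (fragments per kilobase of gene, scaled for library depth, so that levels of different genes can be compared per length), and 16123108 to 19896988 reads lay on genes in a library. Luminal markers were high in all 8 libraries, with a summed level of Krt8, Krt18 and Epcam of 3600 to 4589 FPKM in controls and 3480 to 4658 FPKM in cKO. The targeted gene Bmpr1a was at 10.6, 11.7, 8.74 and 9.52 FPKM in controls 1 to 4 and at 12.01, 12.03, 10.2 and 10.4 FPKM in cKO 1 to 4 (limma, adjusted p = 0.560). A level over the whole gene in unsorted cells does not check a deletion in 1 layer, so the libraries are named by their labels.

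Of the 8 members with reads, Ugp2 and B4galt1 were higher in all 4 cKO libraries, and Lalba had the largest mean difference with overlapping groups. Ugp2 narrowly passed the adjusted threshold (limma, adjusted p = 0.0461) and B4galt1 narrowly missed it (0.0591). Over 20 alternatives, Ugp2 was above the threshold in 12, and B4galt1 passed in 4. Slc2a1, Hk1, Hk2, Pgm2 and Slc35a2 overlapped between the groups with differences of at most 0.17 in size on the log2(FPKM + 1) scale. Differences were tested by limma on that scale over 15143 genes with a mean of at least 0.5 FPKM. With the Benjamini-Hochberg adjusted p under 0.05, 1 of 8 members was called, in the higher direction, while 0.892% of all tested genes were called (0.588% higher). With an unadjusted p under 0.05, 2 members were higher and 0 lower, beside 8.85% and 7.53% of all genes (16.4% in both directions). The same 2 members had groups that did not overlap, beside 6.1% of all genes that were higher and 4.6% that were lower in this way, 10.7% together. The median difference of the 8 members was 0.08, and that of all genes tested was 0.000715.

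The promoters of the 3 genes with the largest differences are shown first, as the bases before the annotated gene starts, written 5′ to 3′ on the gene's strand. The sequences are from RefSeq on GRCm38.p6, and all 9 members matched that table, with 11 windows of 250 bases before to 50 bases after a start. Each window was searched on both strands for 3 motifs: TTCNNNGAA, the core of sites for STAT5, the factor that prolactin activates; the core promoter element TATAAA; and the Sp1 motif GGGCGG. Matches stand in capitals, and an Sp1 motif on the opposite strand reads as CCGCCC. None of these motifs overlaps another in the sequences shown.
Lalba, chr15:98482722-98482933, minus strand: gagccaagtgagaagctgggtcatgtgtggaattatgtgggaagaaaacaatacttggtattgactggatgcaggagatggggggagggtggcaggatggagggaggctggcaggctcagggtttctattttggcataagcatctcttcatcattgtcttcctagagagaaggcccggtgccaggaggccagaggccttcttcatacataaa
B4galt1, chr4:40854006-40854234, minus strand: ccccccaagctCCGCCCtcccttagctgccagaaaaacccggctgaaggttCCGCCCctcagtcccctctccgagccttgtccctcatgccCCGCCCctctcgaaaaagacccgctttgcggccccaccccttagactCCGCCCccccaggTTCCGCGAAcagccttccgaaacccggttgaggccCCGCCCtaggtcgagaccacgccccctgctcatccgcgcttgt
Ugp2, chr11:21371268-21371517, minus strand: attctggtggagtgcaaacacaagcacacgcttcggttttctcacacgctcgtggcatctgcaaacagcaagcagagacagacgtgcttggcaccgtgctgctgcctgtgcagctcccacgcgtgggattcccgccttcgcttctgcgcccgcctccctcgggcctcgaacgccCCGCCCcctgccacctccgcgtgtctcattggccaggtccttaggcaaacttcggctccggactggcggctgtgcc

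The Lalba window held none of the 3 motifs. The B4galt1 window held 5 Sp1 motifs and 1 STAT5 core, whose first base lies at -99 from the RefSeq start. The Ugp2 window shown held 1 Sp1 motif at -76, and a further Ugp2 window, of a start inside the gene, held 2. Among the other members, Sp1 motifs were present for Hk2 (3), Pgm1 (2), Pgm2 (4), Slc2a1 (2) and Slc35a2 (1) and absent from both Hk1 windows. Among the 9 members, the letters TATAAA were found only for Pgm1 and Slc2a1. Their first base lay at -108 for Pgm1 and at 29, after the start, for Slc2a1. Over all 32851 RefSeq windows of 300 bases, 35.7% hold the Sp1 motif, 13.6% the core promoter element and 8.3% the STAT5 core. A match describes the letters of the window and does not show a bound site.

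Lalba, the regulatory subunit of lactose synthase and a whey protein (ENSMUSG00000022991, chr15:98480400-98482721, minus strand, GRCm38), was at 17.4, 15.9, 30.5 and 22.0 FPKM in controls 1 to 4 and at 86.8, 31.1, 14.5 and 52.9 FPKM in cKO 1 to 4. Libraries cKO 1, cKO 2 and cKO 4 stood above every control, while cKO 3 had the lowest level of all 8 libraries. The mean was 21.4 ± 6.57 FPKM in controls and 46.3 ± 31.3 FPKM in cKO (SD, n = 4 each), a ratio of 2.16. The log2 difference of 0.84 ± 0.47 (SE) did not pass the test (limma, adjusted p = 0.419), and the exact two-sided permutation test gave p = 0.229, where 4 libraries against 4 allow no p under 0.0286.

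The spread of Lalba was itself uneven, with a coefficient of variation of 30.6% in controls and 67.5% in cKO. Its difference was 1.59 on the log2(FPKM + 1) scale between replicates 1 and 2 of each group and 0.10 between replicates 3 and 4. Without cKO 3 the difference was 1.29 (adjusted p = 0.123) and without cKO 1 it was 0.46 (adjusted p = 0.643), so that a single library moved the value by more than 1.5 times in either direction. Lalba had 177 to 1292 reads in a library.

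Lalba in cKO 3 stood apart from the other milk genes of the same library. The list of 10 other milk genes holds the caseins Csn1s1, Csn1s2a, Csn1s2b, Csn2 and Csn3, the whey gene Wap, and Muc15, Xdh, Btn1a1 and Plin2 of the milk fat globule and its droplets. In cKO 3, all 10 of them were above every control, while Lalba was below every control. Wap was at 24.3, 25.3, 62.8 and 41.6 FPKM in controls and at 148, 128, 146 and 323 FPKM in cKO. The ratio of Lalba to Wap was accordingly 0.486 to 0.718 in controls and 0.587, 0.243, 0.0992 and 0.164 in cKO 1 to 4, so that cKO 1 was the only cKO library inside the control range. Relative to the beta-casein gene Csn2, Lalba was 1.04% to 1.72% in controls, 3.20% in cKO 1 and 0.402% in cKO 3, with cKO 2 and cKO 4 at 1.11% and 1.17%. The 10 milk genes were known to be higher in these libraries when the list was made. Of these, 10 of 10 had an unadjusted p under 0.05, beside 16.4% of all genes. An adjusted p under 0.05 was reached by 4, beside 0.892%, and 9 had groups without overlap, beside 10.7%. Their median difference was 0.91.

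**Figure D1:**
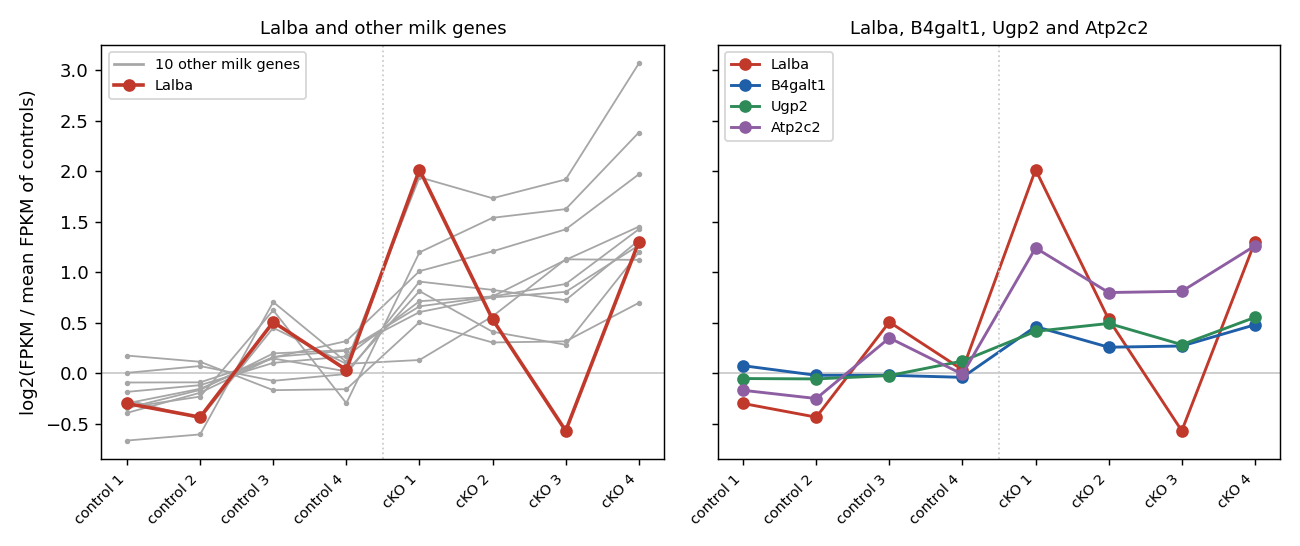
The vertical axis gives the log2 of a gene's FPKM over its mean in the 4 controls, and the horizontal axis the 8 libraries; lines only join the points of a gene. On the left, Lalba (red) falls below the controls in cKO 3 while all 10 other milk genes (grey) stay above them; on the right, B4galt1 and Ugp2 lie above every control in all 4 cKO libraries, as does Atp2c2.

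The 5 genes whose profiles over the 8 libraries were closest to Lalba, among 12922 genes with a mean of at least 1 FPKM, were Trf, Pigr, Fos, Car6 and Egr1, with root mean square differences of centred log2(FPKM + 1) of 0.387, 0.421, 0.440, 0.448 and 0.465. Trf encodes transferrin, Pigr carries immunoglobulin A across epithelia, Car6 is a secreted carbonic anhydrase, and Fos and Egr1 are immediate early genes that tissue digestion can also induce. Trf was at 24.1, 22.2, 36.0 and 32.7 FPKM in controls and at 66.7, 50.9, 31.3 and 81.1 FPKM in cKO. Fos was at 55.4 to 65.6 FPKM in controls and at 120, 61.7, 52.3 and 127 FPKM in cKO 1 to 4, and Egr1 at 33.4 to 44.4 FPKM in controls and at 73.0, 34.6, 29.2 and 75.9 FPKM. In cKO these genes, like Lalba, were high in cKO 1 and cKO 4 and lowest in cKO 3. The part of digestion in the level of Lalba was not tested. B4galt1 and Ugp2 ranked 373 and 411 in likeness to Lalba, Btn1a1 15 and Wap 12038. The measure takes in the size of a change as well as its pattern, so these ranks do not compare patterns alone. A gene flat over the 8 libraries would stand at 0.819, beside 0.6945 for B4galt1, 0.6977 for Ugp2 and 0.9654 for Wap.

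B4galt1, the catalytic subunit of lactose synthase, which adds galactose to glycoproteins where alpha-lactalbumin is absent (ENSMUSG00000028413, chr4:40804602-40854005, minus strand), was at 47.1, 44.1, 44.1 and 43.5 FPKM in controls and at 61.6, 53.5, 53.9 and 62.4 FPKM in cKO. All 4 cKO libraries were above all 4 controls. The means were 44.7 ± 1.63 and 57.8 ± 4.80 FPKM (SD, n = 4 each), a ratio of 1.29, and the log2 difference was 0.36 ± 0.07 (SE; limma, unadjusted p = 0.000694, adjusted p = 0.0591). The exact permutation test gave p = 0.0286, the smallest this design allows. The difference was 0.33 between replicates 1 and 2 and 0.40 between replicates 3 and 4. Over 20 alternatives the adjusted p ranged from 0.0172 to 0.146 and passed the threshold in 4, among them the test of protein-coding genes alone (0.0407), the block of replicates 1 and 2 against 3 and 4 (0.0379) and limma-voom on the reads behind the FPKM (0.0417). It missed the threshold in the other 16, which include all 8 fits with a library left out (0.0636 to 0.146) and the same FPKM sum (0.133).

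B4galt1 was the most abundant of 7 beta-1,4-galactosyltransferases, ahead of B4galt5 at a mean of 15.4 FPKM. The 6 others all had a lower mean in cKO than in controls, beside 7540 of 15143 tested genes with a negative log2 difference. Their median log2 difference was -0.19. With limma, 1 of 6 had an unadjusted p under 0.05 (B4galt2, difference -0.20, adjusted p = 0.287), beside 16.4% of all genes. With limma-voom it was 2 of 6, beside 2567 of 15143 genes. The 6 lower means held under each scaling of the libraries that was tried. B4galt1 was therefore 52.3% to 55.5% of the family's summed FPKM in controls and 58.8% to 65.5% in cKO (means 53.8% ± 1.53 and 63.2% ± 2.98, SD, n = 4 each).

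The ratio of both subunits of lactose synthase also varied. Lalba over B4galt1 was 0.370, 0.360, 0.692 and 0.506 in controls and 1.41, 0.581, 0.268 and 0.848 in cKO, on the FPKM scale. Lalba exceeded B4galt1 only in cKO 1, and the lowest ratio was that of cKO 3.

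**Figure D2:**
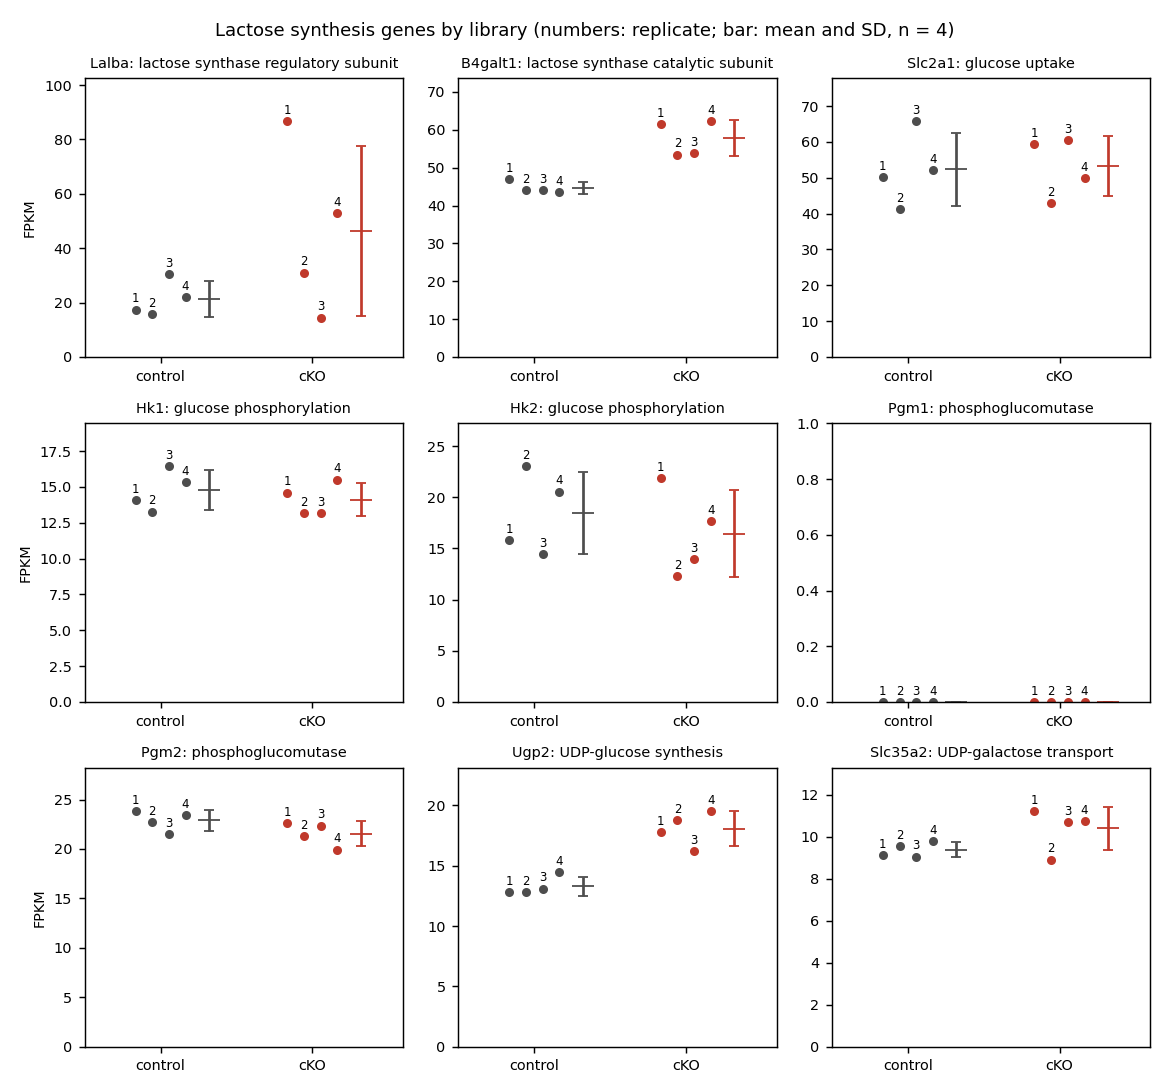
FPKM (vertical axis, from 0) of the 9 members in each control (grey) and cKO (red) library, numbered by replicate, with the mean and SD of 4 libraries beside the points. The groups are separate for B4galt1 and Ugp2, Lalba spans 14.5 to 86.8 FPKM within cKO, and Pgm1 is at 0 throughout.

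Slc2a1 (GLUT1), the facilitative carrier that supplies the gland with glucose and that has also been placed in the Golgi of lactating cells (ENSMUSG00000028645, chr4:119108711-119137983, plus strand), was at 50.3, 41.2, 65.9 and 52.1 FPKM in controls and at 59.4, 42.8, 60.6 and 49.9 FPKM in cKO. The groups covered nearly the same range. The log2 difference was 0.03, with a 95% interval of -0.32 to 0.38 (limma, adjusted p = 0.949), and its sign turned with the scaling, to -0.03 when all libraries had the same FPKM sum. Among 13 glucose transporters, Slc2a1 came second at a mean of 52.8 FPKM, after the sodium-coupled carrier Slc5a1 at 66.1 FPKM, and their ranges overlapped (41.2 to 65.9 and 55.0 to 78.8 FPKM). The insulin-regulated carrier Slc2a4 was the next at 5.88 FPKM. Of the 12 others, 8 could be tested. With limma, 0 had an unadjusted p under 0.05, beside 16.4% of all genes. With limma-voom it was 1, beside 2567 of 15143 genes.

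The hexokinases Hk1 and Hk2, which trap glucose as glucose 6-phosphate, were expressed at similar levels. Hk1 (ENSMUSG00000037012, chr10:62268855-62379908, minus strand) was at 14.1, 13.3, 16.5 and 15.3 FPKM in controls and at 14.6, 13.2, 13.2 and 15.5 FPKM in cKO. Hk2 (ENSMUSG00000000628, chr6:82725025-82774454, minus strand) was at 15.8, 23.1, 14.5 and 20.6 FPKM in controls and at 21.9, 12.3, 14.0 and 17.7 FPKM in cKO. Neither separated the groups: the log2 differences were -0.06 (95% interval -0.25 to 0.13, adjusted p = 0.763) and -0.17 (-0.60 to 0.27, adjusted p = 0.720), both by limma. Hk2 varied more between mice, with a ratio of Hk2 to Hk1 of 0.879 to 1.74 in controls and 0.933 to 1.497 in cKO. Other hexokinases were low, with Hk3 at a mean of 1.596 FPKM and Hkdc1 at 0.0300 FPKM.

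Pgm2 (ENSMUSG00000029171, chr5:64092950-64128351, plus strand), a phosphoglucomutase that interconverts sugar phosphates, was at 23.9, 22.7, 21.5 and 23.5 FPKM in controls and at 22.6, 21.3, 22.4 and 19.9 FPKM in cKO. The values of both groups overlapped. The log2 difference was -0.08, with a 95% interval of -0.23 to 0.06 (limma, adjusted p = 0.559). It was the highest of the phosphoglucomutase genes with reads, which leaves out Pgm1, and was followed by Pgm5 at 11.01 FPKM, a relative found in muscle cell junctions.

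Pgm1 (ENSMUSG00000025791, chr4:99929414-99987294, plus strand) is listed at 0 FPKM in all 8 libraries, with no read recovered in any of them. RefSeq gives each of the symbols Pgm1 and Pgm2 as an older name of the other gene, and the table's Pgm1 is the gene on chromosome 4. Its neighbours Alg6 and Itgb3bp had 3 to 44 and 10 to 53 reads per library and Efcab7 0 to 3, while Ror1, the next gene on the far side of Pgm1, and Usp1, Cachd1 and Jak1 farther out had at least 178 reads in every library. Other genes of the region were also low, such as Ube2u with 0 to 2 reads, Foxd3 with 0 to 1 and Raver2 with 48 to 92. An unnamed entry of the same table, whose domain text names phosphoglucomutase domains, lies on a patch scaffold and spans 58082 bases, against 57881 for Pgm1. It is the only unnamed entry among 360 with such text. It was at 0.202, 1.48, 3.13 and 2.34 FPKM in controls and at 0.383, 0.236, 3.84 and 1.88 FPKM in cKO (9 to 157 reads). A level of Pgm1 is thus not given here, and the part of read assignment in its 0 was not tested.

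**Figure D3:**
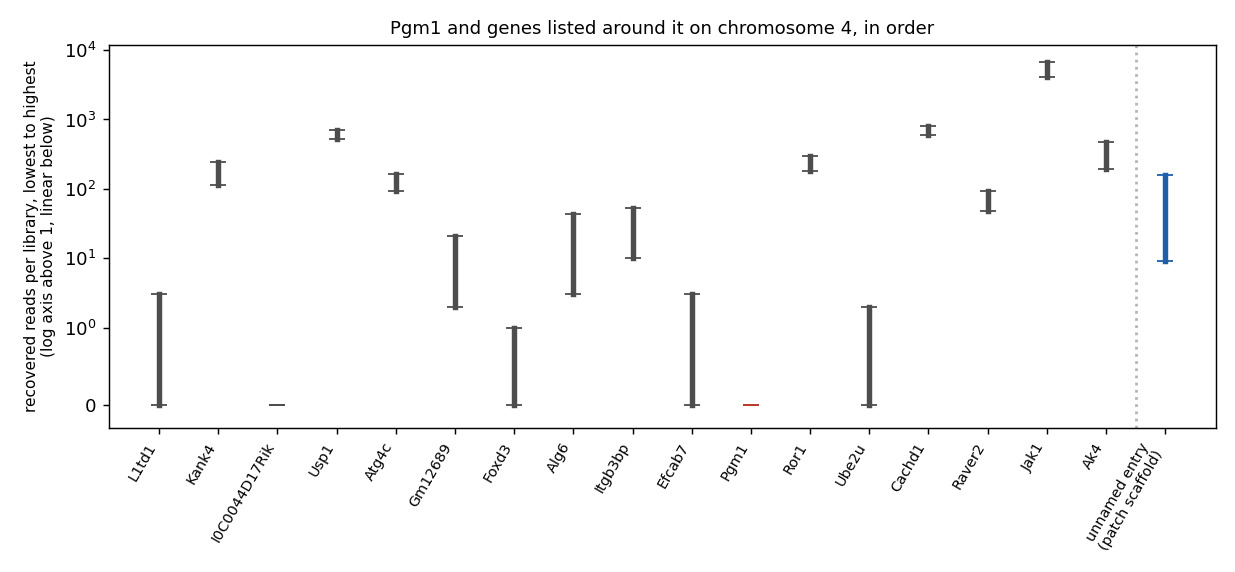
Vertical lines run from the lowest to the highest number of recovered reads in the 8 libraries (log axis above 1) for Pgm1 (red), genes listed around it on chromosome 4 in their order, and the unnamed entry on a patch scaffold (blue). Pgm1 is at 0, Alg6, Itgb3bp and Efcab7 reach at most 53 reads, and the unnamed entry has 9 to 157 reads.

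Ugp2, which joins glucose 1-phosphate and UTP into UDP-glucose (ENSMUSG00000001891, chr11:21321138-21371201, minus strand), was at 12.8, 12.8, 13.1 and 14.5 FPKM in controls and at 17.8, 18.7, 16.2 and 19.5 FPKM in cKO. All 4 cKO libraries were above all 4 controls. The means were 13.3 ± 0.791 and 18.1 ± 1.44 FPKM (SD, n = 4 each), a ratio of 1.36, with 674 to 1114 reads in a library. The log2 difference of 0.41 ± 0.07 (SE) passed the test (limma, adjusted p = 0.0461, exact permutation p = 0.0286). The difference was 0.48 between replicates 1 and 2 and 0.35 between replicates 3 and 4. The adjusted call was lost when any library other than cKO 3 was left out (adjusted p 0.0763 to 0.121), and the difference then stayed between 0.38 and 0.45. Over 20 alternatives its adjusted p ranged from 0.0156 to 0.121 and was above the threshold in 12, among them the same FPKM sum (0.0747), no filter on low values (0.089) and no variance trend (0.0601).

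Slc35a2, which brings UDP-galactose into the Golgi (ENSMUSG00000031156, chrX:7884028-7894492, plus strand), was at 9.10, 9.53, 9.05 and 9.80 FPKM in controls and at 11.2, 8.91, 10.7 and 10.7 FPKM in cKO. Libraries cKO 1, cKO 3 and cKO 4 were above every control and cKO 2 was below every control. The log2 difference was 0.13, with a 95% interval of -0.04 to 0.30 (limma, adjusted p = 0.441). Slc35a2 was the third of 7 nucleotide sugar and related transporters at a mean of 9.88 FPKM, after Slc35a4 at 19.9 and the CMP-sialic acid carrier Slc35a1 at 10.4 FPKM. The ratio of B4galt1 to Slc35a2 was 4.43 to 5.17 in controls and 5.04 to 5.999 in cKO.

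**Figure D4:**
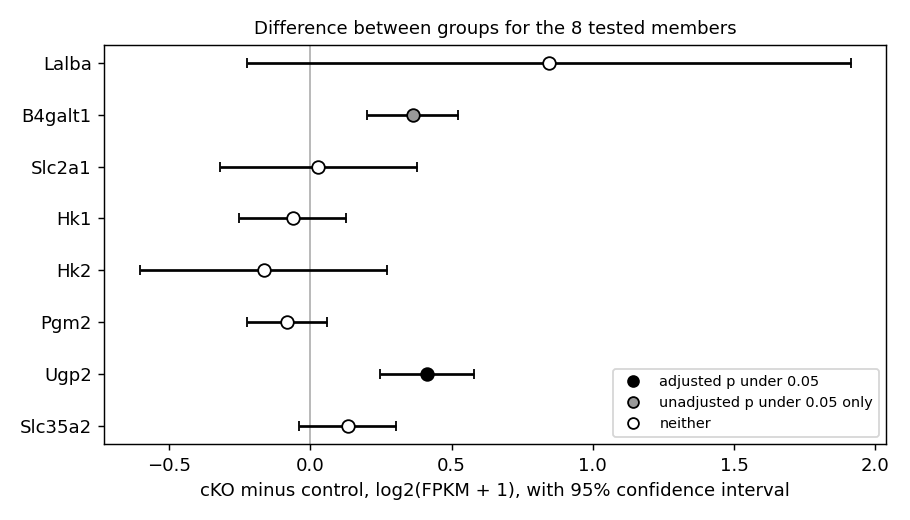
Points give the difference between cKO and control on the log2(FPKM + 1) scale for the 8 tested members, with 95% confidence intervals from limma; filled black marks an adjusted p under 0.05 and grey an unadjusted p under 0.05. The interval of Lalba runs from -0.22 to 1.91 and is the widest, while those of B4galt1 and Ugp2 lie above 0.

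The order of the members by level was close in both groups. In controls Slc2a1 (mean 52.3 FPKM) and B4galt1 (44.7 FPKM) led and overlapped, and both stood above the other members in every control. Pgm2, Lalba, Hk2, Hk1 and Ugp2 followed, each overlapping the next, and Slc35a2 was lower than all of these (9.37 FPKM). In cKO the order began with B4galt1 (57.8 FPKM), Slc2a1 (53.2 FPKM) and Lalba (46.3 FPKM), which overlapped, and Ugp2 moved ahead of Hk2 and Hk1, with ranges of Ugp2 and Hk2 that overlapped.

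Around these steps, 66 further genes in 10 lists were examined, of which 57 could be tested. They included 1 gene with an adjusted p under 0.05, which was higher in cKO, beside 0.588% of all genes. With an unadjusted p under 0.05, 9 were higher and 2 lower, beside 8.85% and 7.53% of all genes, and 7 were higher without overlap, beside 6.1%. Their median difference was 0.03.

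The gene that passed was Atp2c2, a Golgi and secretory pathway pump for calcium and manganese, the metal that galactosyltransferases need. Atp2c2 was at 11.3, 10.7, 16.2 and 12.6 FPKM in controls and at 30.0, 22.1, 22.3 and 30.5 FPKM in cKO, with every cKO library above every control. Its log2 difference was 0.99 ± 0.15 (SE; limma, adjusted p = 0.0316), and it kept an adjusted p under 0.05 in 11 of 20 alternative settings (adjusted p 0.0107 to 0.0924). Its relative Atp2c1 was at 9.22 to 11.5 FPKM in controls and 11.9 to 13.9 FPKM in cKO, without overlap (difference 0.28, adjusted p = 0.142). The Golgi manganese and calcium protein Tmem165 (29.9 to 30.5 and 29.9 to 35.5 FPKM) overlapped between the groups. Entpd4, a Golgi nucleotidase, had 0 to 2 reads in a library and was not tested for a difference. The part of read assignment in this low count was not tested either.

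The supply of UDP-galactose and UTP gave small differences that did not pass the adjusted test. Galm, a mutarotase of free galactose, was at 3.54 to 4.69 and 4.58 to 6.48 FPKM (difference 0.37, adjusted p = 0.144). Of 4 genes of UTP supply, 2 were higher without overlap, beside 6.1% of all genes. These were the kinases Cmpk1 (34.4 to 36.6 and 38.9 to 45.6 FPKM) and Nme1 (9.09 to 10.5 and 10.7 to 11.9 FPKM). Their differences were 0.23 and 0.18 (limma, adjusted p = 0.126 and 0.243), and Umps and Nme2 overlapped. Nme1 and Nme2 are close relatives, and how the counting split reads between them was not tested. Among transporters, Slc35a3, which carries UDP-N-acetylglucosamine, was at 3.40 to 4.21 and 3.999 to 4.99 FPKM (difference 0.22, adjusted p = 0.240).

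Other routes for glucose phosphate and UDP-glucose were mixed. Glycogen synthase Gys1 (2.90 to 3.53 and 3.62 to 4.22 FPKM) and glycogen phosphorylase Pygb (8.399 to 9.67 and 9.99 to 11.7 FPKM) were higher without overlap, with differences of 0.22 and 0.18 (adjusted p = 0.212 and 0.239). Uxs1, which makes UDP-xylose, was at 3.44 to 3.78 FPKM in controls and 2.40 to 3.51 FPKM in cKO (difference -0.26, adjusted p = 0.218). Gpi1, the isomerase at the entry of glycolysis, was the highest of this list at a mean of 33.7 FPKM, with a difference of 0.02 (adjusted p = 0.933).

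Of 10 regulators, Elf5, a transcription factor of alveolar cells downstream of prolactin, was at 18.1, 17.8, 24.7 and 24.7 FPKM in controls and at 31.9, 33.7, 38.8 and 49.8 FPKM in cKO (difference 0.82 ± 0.16 SE; limma, adjusted p = 0.0591). Its groups did not overlap, and its adjusted p was under 0.05 in 8 of 20 alternative settings, limma-voom among them (range 0.00188 to 0.146). The other 9 regulators, Prlr, Jak2, Stat5a, Stat5b, Nr3c1, Cish, Socs2, Akt1 and Hif1a, did not pass an unadjusted p of 0.05 with limma or limma-voom, and Akt1 was the highest of them at 67.1 FPKM.

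**Figure D5:**
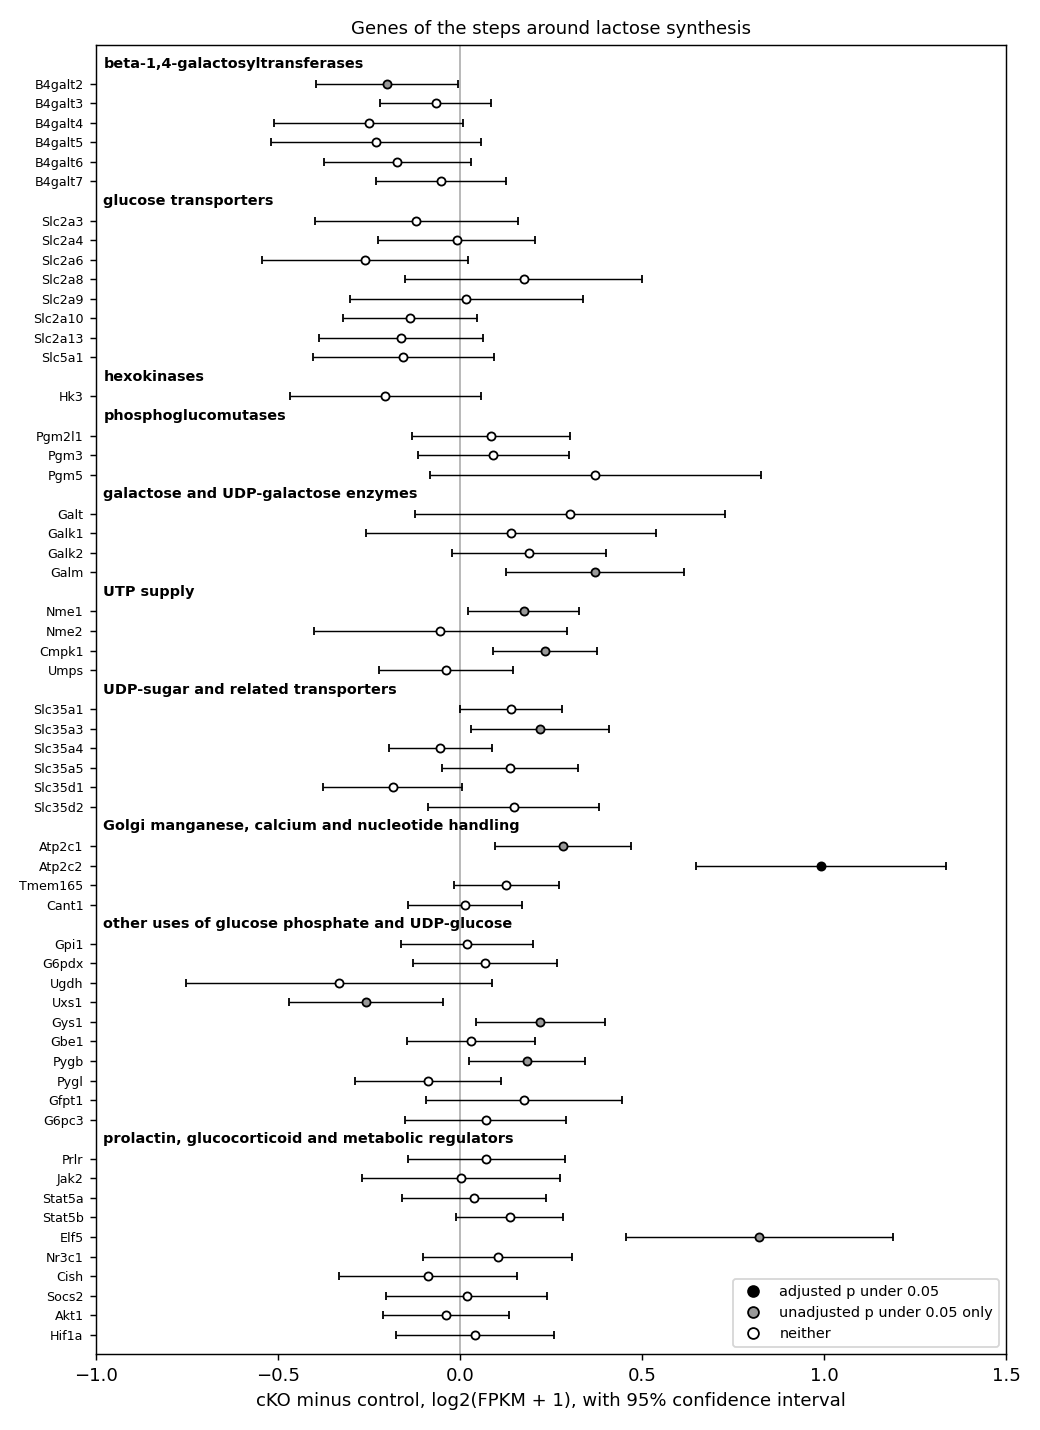
Points give the difference between cKO and control on the log2(FPKM + 1) scale for tested genes of 10 lists, with 95% confidence intervals from limma; filled black marks an adjusted p under 0.05 and grey an unadjusted p under 0.05. Atp2c2 at 0.99 and Elf5 at 0.82 stand to the right, and the 6 other galactosyltransferases all lie left of 0.

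Cell type markers were set beside these values. The alveolar list (Elf5, Kit and Csn2) summed to 1491 to 1897 FPKM in controls and 2763 to 4589 FPKM in cKO, nearly all of it Csn2, with 3 of 3 genes higher in the mean. Kit overlapped between the groups. The summed levels of the luminal, hormone-sensing, myoepithelial, adipocyte, endothelial, macrophage, fibroblast, erythroid and lymphocyte lists overlapped, with 1518 to 2055 and 1411 to 1945 FPKM for the myoepithelial one. Within that list the groups of Oxtr did not overlap (2.14 to 2.86 FPKM in controls and 4.36 to 7.24 FPKM in cKO, difference 0.85, adjusted p = 0.0644), and Krt14 was at 665 to 850 and 490 to 666 FPKM (difference -0.39, adjusted p = 0.209). Of 6 adipocyte markers, whose sum was mostly Fabp4, 5 had a higher mean in cKO, and Cidec (0.316 to 0.450 and 1.01 to 2.29 FPKM, difference 0.86, adjusted p = 0.0378) and Lep (at most 0.188 FPKM) did not overlap. Endothelial, macrophage, fibroblast and lymphocyte markers had lower means in cKO (14 of 14 genes), and the skeletal muscle list was higher without overlap but at most 1.29 FPKM. The part of the mix of cells in the levels of Ugp2, B4galt1 and Lalba was not tested.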

How the data were processed

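RNA-seq of 4 control and 4 cKO libraries was analysed. Per the labels and the paper, the authors used a NEBNext Ultra kit, Hisat2 and GRCm38; the submitters' processing notes name featureCounts 1.5.0-p3, StringTie 1.3.3b and the build mm9. They deposited FPKM for 55933 genes, and 99.68% of the coordinates shared with GENCODE vM21 are identical, so coordinates are given as GRCm38. Multiplying FPKM by gene length and dividing by a constant of the library gave whole numbers for 100% of values (tolerance 0.01 read), which are the reads. The deposited FPKM already contain size factors.

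Differences were tested with limma 3.58.1 (R 4.3.3; trend, Benjamini-Hochberg adjustment) on log2(FPKM + 1) for genes with a mean of at least 0.5 FPKM, and single genes also by an exact permutation test over 70 splits. The procedure was tested on simulated data. Fold changes on this scale understate those of low genes. Alternatives were another pseudocount (0.1), 3 scalings, other filters, a replicate block, a block of replicate sets, no trend, limma-voom on the reads, protein-coding genes alone and leaving out each library.

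The members and gene lists were chosen with earlier results of these data known. Named genes are the members, list genes with an unadjusted p under 0.05 or no overlap, the highest of each family, and the 5 genes most like Lalba; other list genes, lower-ranked family members and neighbours of Pgm1 were named after their values were seen. A few list genes and neighbours are not reported here. Strand-specific counting is not stated: Slc2a1, Ugp2 and Hk1 share 105, 78 and 157 exon bases with opposite-strand genes that have at most 20 reads, and Pgm1 shares 398 with Itgb3bp. P-values measure the spread between mice.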

Additional observations from a re-analysis of the deposited data

Results flagged for a closer look

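Of 54 groups of 4 libraries looked at, 3 held a library far from the other 3, and about 1 in 20 groups, here 2.7, would by chance. B4galt1 was at 47.0863 FPKM in control 1, with the other controls at 43.5 to 44.1 FPKM; this library was the control nearest to cKO. B4galt2 was at 1.2665 FPKM in cKO 1, above the other cKO libraries. Control 4 had 18778823 reads on genes, above the other controls.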

How the results depend on the processing

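The signs of the differences of 7 tested members (all but Slc2a1) held under all 20 alternatives. Slc2a1 turned to -0.0325 when libraries were scaled to the same FPKM sum, to -0.00333 when milk genes were left out of that sum and to -0.0306 by library totals, and it ranged from -0.0784 to 0.143 with 1 library left out (below 0 without control 2, cKO 1 or cKO 3). The count of members with an adjusted p under 0.05 (1 as reported) was 0 with the same FPKM sum (with and without milk genes in it), without the filter on low values, without the variance trend and with the replicate block, and 2 with the block of replicate sets, limma-voom without and with the replicate block, and protein-coding genes alone. It was 0 to 1 with 1 library left out, and B4galt1 was the added gene wherever the count was 2. The count at an unadjusted p under 0.05 was 2 to 3 throughout.

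Among the related genes, the count with an adjusted p under 0.05 (1 as reported) was 2 with the same FPKM sum (with and without milk genes in it), library totals, the block of sets, limma-voom and protein-coding genes, 4 with limma-voom and the replicate block, 0 without the filter, and 0 to 1 with 1 library left out. Their unadjusted count (11) was 7 with the same FPKM sum, 17 with the replicate block and 21 with limma-voom and that block, and 7 to 12 with 1 library left out. Over all genes, adjusted calls (135) were 0 to 78 with 1 library left out and 10 to 680 otherwise. The same FPKM sum and library totals shifted the median of all genes by -0.05 and changed the share of unadjusted calls that were higher from 54.0% to 32.2% and 32.5% (41.8% without milk genes).

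Same-numbered libraries deviated together with r of 0.0797 to 0.137, not all over 0.1, so the numbers were not taken as pairs. Libraries of the same set (replicates 1 and 2, or 3 and 4) with other numbers had r of 0.0873 to 0.178, and libraries of different sets -0.21 to -0.072. With the replicate block, adjusted p was 0.0607 for Ugp2 and 0.0633 for B4galt1 (limma). The main test leaves the sets out as well. With the sets as a block, adjusted p was 0.0322 for Ugp2 and 0.0379 for B4galt1 (limma), and 442 of all genes passed, against 135.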
